A study of Homo sapiens with 12 samples.

Results

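The replication-dependent histone genes are the 66 genes of 60660 in the RNA-seq tables whose symbols are those of the clustered H1 genes (H1-1 to H1-6) or of the numbered H2AC, H2BC, H3C and H4C series. They comprise 6 H1, 16 H2A, 17 H2B, 13 H3 and 14 H4 genes. The symbol alone chose them, and no measured value was used. The libraries came from LNCaP cells, an androgen-sensitive human prostate cancer (PCa) line, and from 22Rv1 cells, a human PCa line derived from a castration-relapsed xenograft. Each line was kept in medium with 10% CS-FBS (charcoal-stripped fetal bovine serum, which is low in steroid hormones) and transfected with NC-mimic, a negative control, or with piR-4447944 mimic, a modified RNA oligonucleotide made to act as this PIWI-interacting RNA. The 4 groups held 3 libraries each. The sources used here do not say whether the libraries of a group came from separate cultures, so the p-values measure only the spread between these libraries.

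Replication-dependent histone genes supply the bulk of new histone protein when DNA is copied, and their mRNAs accumulate in S phase. Unlike other mRNAs of protein-coding genes, the mature transcripts carry no poly(A) tail and end just after a conserved stem-loop, which the stem-loop binding protein SLBP recognises. Libraries that capture poly(A) tails therefore under-represent them and hold chiefly the polyadenylated forms that some of these genes also make by reading past the stem-loop. Whether poly(A) capture was used is not given in the sources used here. The H2A, H2B, H3 and H4 proteins form the nucleosome core, and H1 binds the linker DNA. Replacement variants such as H3.3 and H2A.Z come from genes with ordinary polyadenylated mRNAs and are made outside S phase as well.

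In the hg38 reference 55 of the genes lie on chromosome 6 between positions 25723397 and 27893891, and 11 lie on chromosome 1 between 149782689 and 149887965. The canonical transcript has 1 exon in all 66. A stem-loop of 16 bases was found within 200 bases of the stop codon in 63 of the 66, starting 22 to 67 bases after it (median 36), and none was found by this pattern for H2BC10, H3C6 or H4C13. The sites below are shown because they are the 3′ end signal the family shares and because the lines are compared for these genes in the next paragraphs. Each is read 5′ to 3′ on the gene's strand from hg38, with both arms of the stem in capitals.
H1-2, chr6:26055739-26055764, minus strand: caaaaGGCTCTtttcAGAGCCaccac
H2AC6, chr6:26124664-26124689, plus strand: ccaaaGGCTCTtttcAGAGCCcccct
H2BC12, chr6:27146361-27146386, minus strand: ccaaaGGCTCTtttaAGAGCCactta
H3C10, chr6:27810511-27810536, plus strand: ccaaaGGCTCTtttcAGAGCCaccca
H4C8, chr6:26285126-26285151, minus strand: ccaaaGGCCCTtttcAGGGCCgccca
H4C11, chr6:27824454-27824479, plus strand: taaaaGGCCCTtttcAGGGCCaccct
H4C12, chr6:27831173-27831198, minus strand: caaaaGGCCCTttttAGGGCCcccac
H2AC20, chr1:149887386-149887411, plus strand: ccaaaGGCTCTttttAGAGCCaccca
H2BC21, chr1:149886183-149886208, minus strand: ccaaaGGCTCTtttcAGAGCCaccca
The H4 genes carried GGCCCT in the first arm, and nearly all genes of the other types carried GGCTCT. Of the 63 cores 38 read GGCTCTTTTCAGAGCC, 9 read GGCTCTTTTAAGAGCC, 9 read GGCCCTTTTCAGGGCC and 4 read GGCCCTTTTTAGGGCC.

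Library totals ran from 12161091 to 22179601 expected counts, and the 66 genes together took 0.0877% to 0.106% of the counts in the LNCaP libraries and 0.00863% to 0.0138% in the 22Rv1 libraries. The luminal markers were present in both lines (the keratin gene KRT8 at 408 to 899 CPM, the counts-per-million value scaled by depth but not by length), while the summed basal markers stayed at or below 0.792 CPM and the summed leukocyte markers at or below 0.518 CPM. The fibroblast list, nearly all of it COL1A1, was at 58.5 to 81.6 CPM in LNCaP cells and 12.03 to 49.7 CPM in 22Rv1 cells, and its part in the results was not tested. The summed endothelial markers, nearly all of them VWF, were at 3.81 to 6.32 CPM in LNCaP cells and 0 to 0.502 CPM in 22Rv1 cells, and their part was not tested either. KLK3, an androgen-driven luminal gene, was at 1631 to 2024 CPM in LNCaP cells and 17.4 to 50.4 CPM in 22Rv1 cells. Both 22Rv1 libraries numbered 3 stood apart in S phase genes: a fixed list of 23 summed to 2964 CPM in NC-mimic replicate 3 and 1382 CPM in mimic replicate 3, against 4029 to 4235 CPM in the other 22Rv1 libraries. Results in 22Rv1 cells are therefore also given without these libraries where they change. In LNCaP cells the libraries numbered 3 were lowest in these genes as well, at 1429 CPM with NC-mimic and 1316 CPM with mimic. The other LNCaP libraries held 1692 to 1819 CPM.

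Of the 66 genes, 48 reached 1 TPM (the deposited transcripts-per-million value, a level scaled by gene length and library depth) in 3 or more libraries, and 7 had no counts in any of the 12 libraries (H2AC1, H2BC1, H2BC10, H3C7, H4C6, H4C7 and H4C13). Detection differed by type: 14 of 16 H2A genes, 12 of 17 H2B, 10 of 13 H3, 10 of 14 H4 and 2 of 6 H1 genes reached this level. It also differed by line, with 35 genes at or above 1 TPM in every LNCaP library and 16 in every 22Rv1 library. A few genes held most of the signal: H2AC18, H2BC12 and H1-2 made up 55.8% of the summed TPM of the 66 genes in LNCaP NC-mimic cells and 43.8% in 22Rv1 NC-mimic cells.

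**Figure D1:**
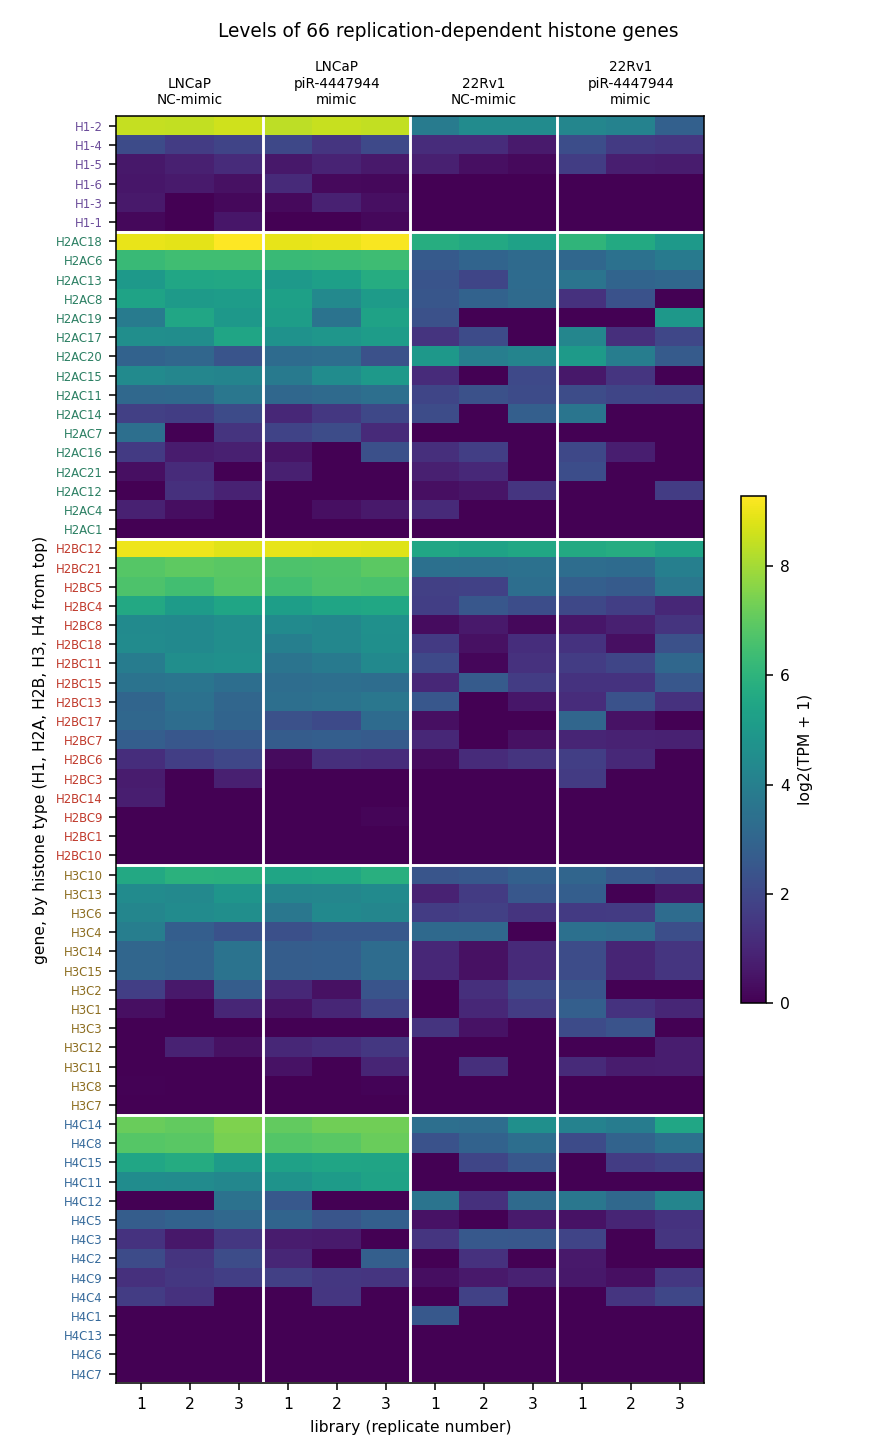
Level of each of the 66 genes, as log2(TPM + 1) in colour, in each of the 12 libraries (columns, by group and replicate number), with genes in rows ordered by histone type and mean level. The rows of H2AC18, H2BC12 and H1-2 are the brightest, the 6 LNCaP columns are brighter than the 6 22Rv1 columns for most genes, and H2AC20 is brighter in 22Rv1 NC-mimic cells.

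H2AC18, an H2A gene on chromosome 1, had the highest mean level over the 12 libraries. Its TPM was 499.7, 477 and 618 in LNCaP NC-mimic cells and 489, 509.7 and 574 in LNCaP mimic cells. In 22Rv1 cells it was 54.2, 47.4 and 38.35 with NC-mimic and 66.25, 48.5 and 31.4 with mimic. The lines did not overlap, and the NC-mimic and mimic libraries overlapped within each line. H2AC18 and H2AC19 have identical coding sequences, so the split of reads between them by the authors' counting is uncertain. Their summed TPM was 561 ± 75.3 (SD, n = 3) in LNCaP and 47.9 ± 9.87 (n = 3) in 22Rv1 NC-mimic cells.

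H2BC12, an H2B gene, was the next highest. Its TPM was 522, 530.1 and 467 in LNCaP NC-mimic cells and 44.4, 39.5 and 45.6 in 22Rv1 NC-mimic cells. The mimic libraries held 485, 477 and 453 TPM in LNCaP cells and 48.5, 52.8 and 41.0 TPM in 22Rv1 cells. H1-2, the linker histone gene that made up nearly all H1 signal, had 354, 346 and 386 TPM in LNCaP NC-mimic cells against 13.6, 21.1 and 21.4 TPM in 22Rv1 NC-mimic cells. With the mimic it was at 325, 363 and 342 TPM in LNCaP cells and at 18.3, 16.3 and 6.10 TPM in 22Rv1 cells, the lowest value belonging to the mimic replicate 3 library that was also lowest in S phase genes. No other H1 gene reached 1 TPM in 3 libraries except H1-4.

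The highest H4 gene was H4C14, at 149.8 ± 23.2 TPM (SD, n = 3) in LNCaP and 13.9 ± 8.26 TPM (n = 3) in 22Rv1 NC-mimic cells, and the highest H3 gene was H3C10, at 54.7 ± 6.72 and 5.16 ± 0.884 TPM (n = 3 each). H4C14 shares its coding sequence with H4C15, and their sum was 192 ± 14.4 and 16.4 ± 10.2 TPM. The rest of the 12 highest genes were H4C8, H2BC21, H2BC5, H2AC6, H2AC13, H2BC4 and H4C15, with LNCaP NC-mimic means between 40.1 and 132 TPM and 22Rv1 NC-mimic means between 2.50 and 9.68 TPM.

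The mean gene length in the authors' tables was set against the distance from the canonical start to the stem-loop end. An excess can lie upstream or in other exons as well as past the stem-loop. The annotated H2BC6 gene, for example, starts at 26172059, upstream of its canonical start at 26183761. In genes with several transcripts the length also varied between libraries, for H2BC6 from 470 to 2585 bases. In 22 genes the length exceeded this distance (or the canonical transcript where no stem-loop was found) by more than 100 bases, and in 44 it did not. Of the 22 longer genes 20 reached 1 TPM in 3 libraries and none was without counts, while 28 of the 44 short genes reached 1 TPM and all 7 genes without counts were short. The median level in LNCaP NC-mimic cells was 20.6 TPM for the longer and 1.17 TPM for the short genes, and the longer genes took 62.9% of the histone counts there and 59.8% in 22Rv1 NC-mimic cells. The short class nevertheless included the 3 highest genes by TPM. These figures describe the annotation and the counts together, because the authors' length also sets how many reads a gene can receive. Short transcripts also leave little effective length: the 389 bases of H4C11 counted as 110.4 to 134 bases in the authors' tables, which makes its TPM sensitive to the fragment length of a library.

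The comparison of the lines asked where histone genes differed between 22Rv1 and LNCaP cells that both received NC-mimic. The genes were far lower in 22Rv1 cells. Their summed level was 932, 975 and 1058 CPM in the LNCaP libraries and 88.8, 87.4 and 105 CPM in the 22Rv1 libraries, a 10.5-fold lower mean (log2 ratio −3.40) without overlap. With 3 libraries against 3 the exact two-sided permutation test cannot go below p = 0.1, the value reached. Every type was lower by summed TPM, H1 by 18.2-fold, H2B by 12.3-fold, H4 by 9.69-fold, H2A by 7.95-fold and H3 by 6.21-fold, each without overlap (exact permutation p = 0.1). In the mimic-treated libraries the summed CPM was 8.25-fold lower in 22Rv1 cells (exact permutation p = 0.1). In bulk libraries, fewer cells making an RNA and less of it per cell cannot be told apart.

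**Figure D2:**
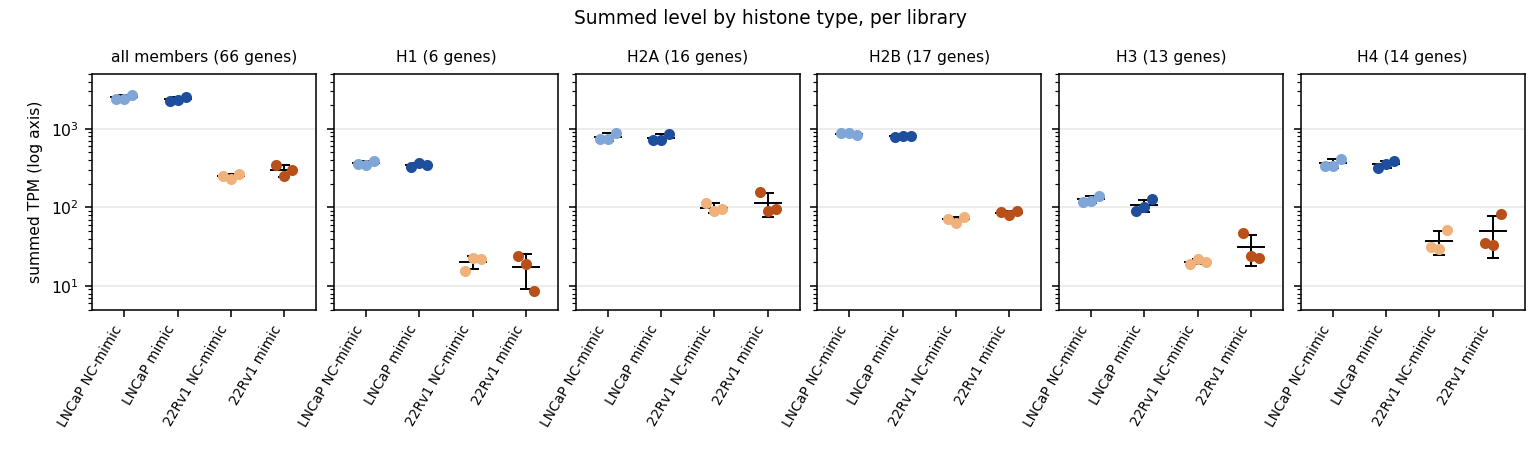
Summed TPM (log axis) of all 66 genes and of each histone type in the 12 libraries, with points for libraries and bars for the mean ± SD of each group (n = 3). In each panel the 22Rv1 points lie below the LNCaP points, and the sums over all genes run from 2254 to 2689 TPM in LNCaP and from 227 to 351 TPM in 22Rv1 cells.

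Gene by gene, 36 of the 66 passed the low-count filter of this comparison and were tested with edgeR among 17497 genes. At an adjusted p under 0.05 (Benjamini-Hochberg over all genes), 31 were lower in 22Rv1 cells and 1, H2AC20, was higher, where 27.5% of all genes tested were lower and 30.9% were higher. The median log2 fold change of the 36 was −3.40 and that of all genes was 0.01. Of the 36, 21 had under 10 counts in some 22Rv1 NC-mimic library. Where such a gene passed the filter through LNCaP cells, a lower value in 22Rv1 cells was built into its selection. This did not hold for all 21, since H4C12 was among them and had the higher mean in 22Rv1 cells. Which line carried each of them past the filter was not counted. The remaining 15 genes had at least 10 counts in every 22Rv1 NC-mimic library, and of these 14 were lower and 1 was higher in 22Rv1 cells at the same threshold. Over all 66 genes unfiltered, mean TPM was lower in 22Rv1 cells for 46, higher for 12 and 0 in both lines for 8. Of the 12 that were higher, H2AC20, H4C12, H4C3 and H2AC14 were above 2 TPM in 22Rv1 cells, at 20.5, 6.81, 3.77 and 3.18 TPM, and were named after their values were seen.

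H2BC21, H2BC12, H2AC18, H2AC6, H2BC4 and H3C10 were between 10.2-fold and 12.2-fold lower in 22Rv1 cells. H2BC21 had 3196, 3502 and 2918 expected counts in LNCaP and 320, 229 and 189 in 22Rv1 NC-mimic libraries, a fitted log2 fold change of −3.56 ± 0.10 (SE; adjusted p = 2.3e-07). The changes were −3.49 ± 0.12 for H2BC12, −3.44 ± 0.17 for H2AC18, −3.60 ± 0.18 for H2AC6, −3.61 ± 0.38 for H2BC4, −3.36 ± 0.19 for H3C10 and −2.90 ± 0.44 for H2AC13. H1-2 fell further, by 4.23 ± 0.19 on the log2 scale. H4C8, with 1033, 1242 and 909 counts in LNCaP and 61, 45 and 30 in 22Rv1 cells, fell by 4.41 ± 0.15. Adjusted p-values of these genes ranged from 2.3e-07 to 0.00074.

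Among the 6 largest falls were also low-count genes. H2BC8 had 377, 376 and 376 counts in LNCaP and 5, 9 and 2 in 22Rv1 cells (log2 fold change −5.97 ± 0.38). H2BC17 had 21, 26 and 17 counts against 1, 0 and 0. The ratio of its pooled, depth-scaled counts was 57.6, with an exact 95% interval of 9.97 to 2310 that covers counting error only. H2BC5 fell by 4.37 ± 0.36 and H4C5 by 4.33 ± 0.71. H4C11 had 37, 38 and 27 counts in LNCaP NC-mimic libraries and none in any of the 6 22Rv1 libraries. Against a floor of 3 counts over the 22Rv1 NC-mimic group it was at least 30.5-fold lower there. H4C12, whose coding sequence is identical to that of H4C11, went the other way, with a TPM of 0, 0 and 10.2 in LNCaP and 10.8, 1.42 and 8.17 in 22Rv1 NC-mimic cells, a difference that did not pass the test (log2 fold change 1.20 ± 1.32, adjusted p = 0.46). When the counts of H4C11 and H4C12 were added, the pair was lower in 22Rv1 cells by 1.74 ± 0.62 on the log2 scale (adjusted p = 0.041). The division between these copies is uncertain, and only their sum is independent of it.

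**Figure D3:**
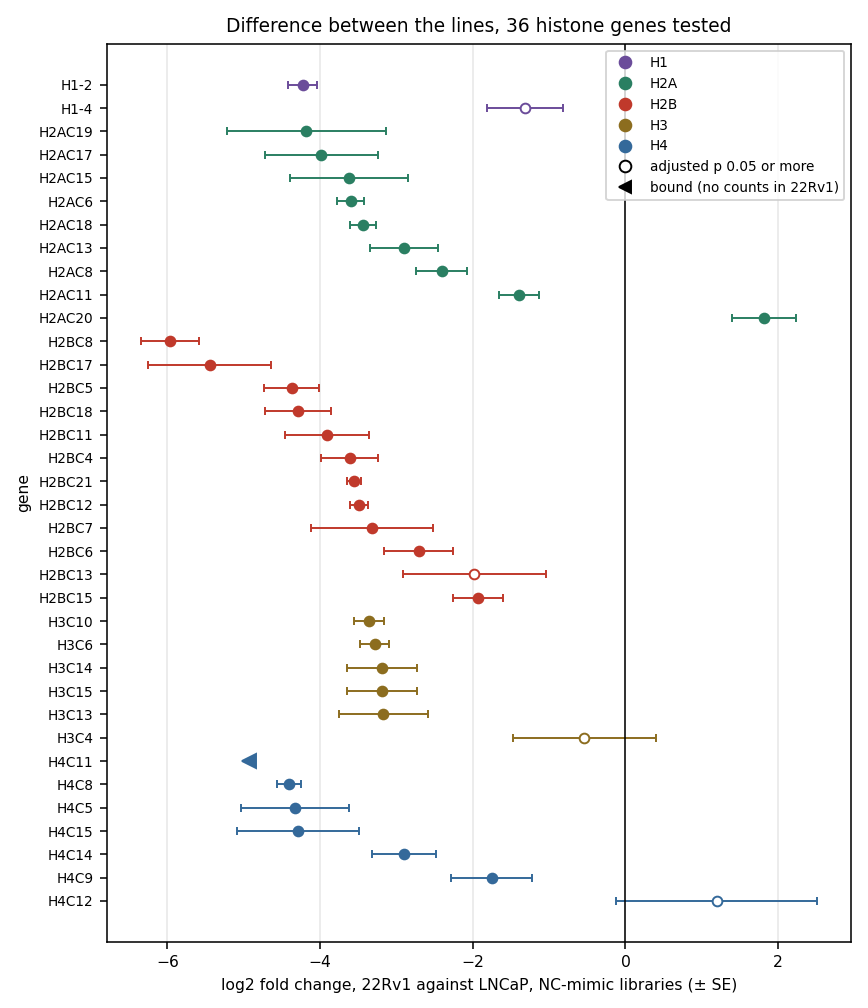
Fitted log2 fold change (± SE) between 22Rv1 and LNCaP NC-mimic libraries for the 36 genes tested, coloured by histone type, with open points for an adjusted p of 0.05 or more a triangle for the bound of H4C11 and the point of H2BC17 resting on 1 count in 22Rv1 cells. All but H2AC20 and H4C12 lie left of 0 and the median is −3.40.

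H2AC20 was the exception. It had 21, 24 and 12 expected counts in LNCaP and 115, 40 and 37 in 22Rv1 NC-mimic libraries, without overlap, a log2 fold change of 1.81 ± 0.42 (adjusted p = 0.0064). In the mimic-treated libraries it had 22, 25 and 12 counts in LNCaP and 79, 43 and 15 in 22Rv1 cells; these overlapped, and the difference of 1.24 no longer passed (adjusted p = 0.16). No histone gene was higher in 22Rv1 cells in that comparison at an adjusted p under 0.05, and 26 of 34 tested were lower. Among all 17283 genes of that fit 4874 were higher and 4190 lower. H2AC20 starts 236 bases from H2BC21 on the opposite strand, and H2BC21 was lower by the −3.56 given above, so the neighbours moved in opposite directions. Their shared upstream region holds the octamer ATTTGCAT, a binding motif of the OCT1 factor in H2B promoters, shown here in capitals on the H2BC21 strand beside that of H2BC12.
H2BC21 and H2AC20, chr1:149886713-149886736: gagccctaATTTGCATaaggtggt
H2BC12, chr6:27146889-27146912: ttcaccttATTTGCATgagaggtc

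H2A and H2B genes are often arranged this way. Among the 66 genes, 12 pairs start within 1000 bases of each other on opposite strands, and 11 of these join an H2A with an H2B gene. Besides H2AC20 and H2BC21, the only pair in which both partners had 10 or more counts in every 22Rv1 NC-mimic library was H2AC6 and H2BC4, both of them lower in 22Rv1 cells by the values given above. Levels within a pair were unequal. H2BC12 was at 506 TPM in LNCaP NC-mimic cells and its partner H2AC12 at 0.773 TPM, while H2AC6 and H2BC4 were at 82.9 and 41.0 TPM.

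In the RefSeq promoter set (250 bases before to 50 after the gene start, hg38) 61 of the 66 genes had an entry. The octamer ATTTGCAT, searched on both strands, was present in 14 of 17 H2B, 11 of 15 H2A and 1 of 11 H3 promoters and in none of 6 H1 and 12 H4 promoters, against 1.80% of all 27305 promoters. The 1 H3 site, listed for H3C4, is the H2AC7 site at chr6:26199397-26199420, at the same offset of −119 from the start used. The GENCODE canonical H3C4 transcript lies elsewhere, at 26196784 to 26197286, so the H3C4 entry describes the H2AC7 window for all 3 motifs. Head-to-head partners share 1 such site, so H2A and H2B counts are not independent. The CCAAT box was found in 52 of the 61 (35.7% of all promoters) and TATAAA in 41 (11.95%). The CCAAT box was in all promoters of H1, H2A, H2B and H3 genes and in 3 of 12 of H4 genes. These matches describe the letters in these windows.

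Gene lists with related functions were compared between the lines in the same fit, where 30.9% of all genes were higher and 27.5% lower in 22Rv1 cells. The counts of each list here and below are to be read beside these shares. Of 11 replacement histone variants 6 were higher and 3 lower in 22Rv1 NC-mimic cells (adjusted p under 0.05), with a median log2 fold change of 0.42. H2AZ2, which encodes an H2A.Z protein, rose by 1.23 ± 0.10, H2AZ1 by 0.96 ± 0.08 and H3-3A by 0.41 ± 0.08 on the log2 scale. H2AJ was the opposite, with 97.3 to 159 CPM in LNCaP and no counts in 22Rv1 NC-mimic libraries. In all, 23 of 23 S phase genes were higher in 22Rv1 cells, by 0.61 (MCM6, a subunit of the replicative helicase) to 2.18 (HELLS, a chromatin remodeller), median 1.16. The histone genes and the S phase genes thus differed between the lines in opposite directions.

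Genes for histone mRNA synthesis and 3′ processing were mixed, 6 of 14 being higher and 4 lower. SLBP was at 73.6 to 87.9 CPM in LNCaP and 177 to 219 CPM in 22Rv1 NC-mimic libraries (1.28 ± 0.12). Also higher were CASP8AP2, a component of histone locus bodies (2.25 ± 0.13), ZNF473, a protein of the U7-dependent processing machinery (1.77 ± 0.12), LSM11 (0.99 ± 0.18), TENT4A and SYMPK. TUT7, a terminal uridylyltransferase that acts in histone mRNA decay, was lower (−1.41 ± 0.13), as were LSM10, UPF1 and CPSF2. NPAT, the cyclin E/CDK2 substrate that activates histone genes, was at 30.5 to 44.3 CPM in LNCaP and 30.2 to 33.1 CPM in 22Rv1 cells (−0.26 ± 0.15, adjusted p = 0.18). Of 10 histone chaperones 5 were higher, among them ASF1B (1.61 ± 0.14) and CHAF1A (0.91 ± 0.12), and 3 were lower.

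Among other RNAs that lack a poly(A) tail, of 5 tested 1 was higher and 2 lower in 22Rv1 NC-mimic cells (median log2 fold change −0.79). The 10 listed RNAs summed to 1671 to 1897 CPM in LNCaP and 679 to 892 CPM in 22Rv1 NC-mimic libraries, without overlap. TERC, the telomerase RNA, had 63.9 counts over the LNCaP NC-mimic libraries and none in the 22Rv1 NC-mimic libraries. Against the floor of 3 counts it was at least 19.2-fold lower in 22Rv1 cells. The signal recognition particle RNA RN7SL1 was at 119.9 to 257 CPM in LNCaP and 97.5 to 228 CPM in 22Rv1 cells (log2 fold change −0.34 ± 0.36, adjusted p = 0.45), MALAT1 was lower (−1.40 ± 0.23), and RN7SK was higher (1.04 ± 0.35) at 2.36 to 7.67 CPM. The part of poly(A) capture in the difference of the histone genes was not tested. Of the related replication-type genes outside the chosen symbols, H4-16 was lower (−1.91 ± 0.41), and H2BU1 (−1.09 ± 0.42) and H2AW (−0.20 ± 0.15) did not pass the test.

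**Figure D4:**
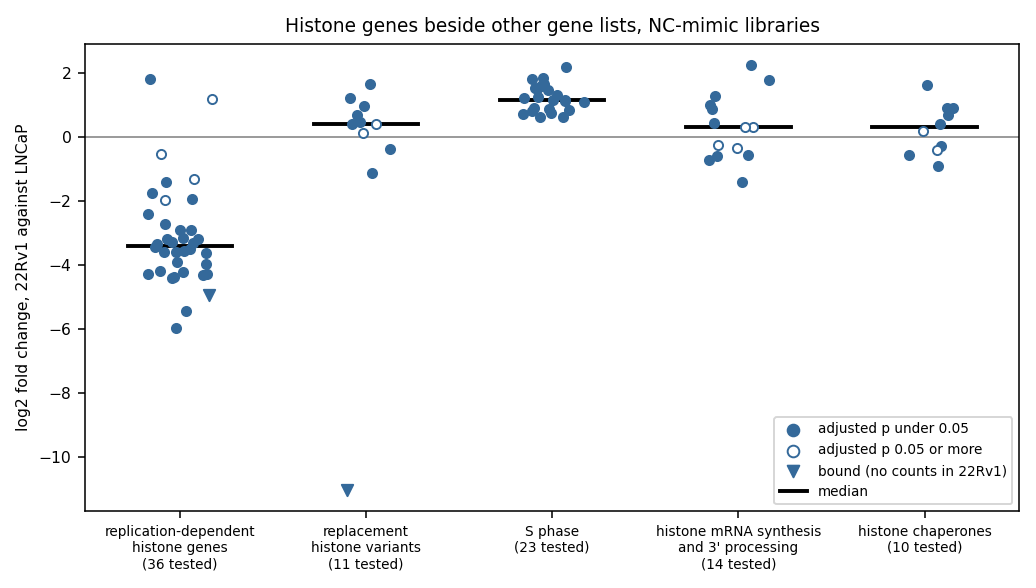
Fitted log2 fold change between 22Rv1 and LNCaP NC-mimic libraries for each tested gene of 5 lists, filled where the adjusted p was under 0.05, with a bar at each median and triangles for genes without counts in 22Rv1 NC-mimic libraries, drawn at their bound. The histone genes centre on −3.40 and the S phase genes on 1.16.

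The mimic comparisons asked whether piR-4447944 mimic changed the histone genes within a line, using the study's rule for DEGs (a log2 fold change beyond 0.2 in size with p under 0.05 before adjustment). Both comparisons share their NC-mimic libraries with the comparison of the lines. In LNCaP cells 2 of 35 genes tested met the rule, where 2.22% of all 16244 genes did. H4C11 had 37, 38 and 27 counts with NC-mimic and 37, 50 and 66 with mimic, or 1.92, 1.95 and 1.64 against 2.50, 3.08 and 3.83 CPM, without overlap (log2 fold change 0.77 ± 0.28, unadjusted p = 0.018). H2BC11, an H2B gene, had 4.93, 4.41 and 4.81 CPM with NC-mimic and 2.77, 2.89 and 4.12 CPM with mimic, also without overlap (−0.53 ± 0.23, unadjusted p = 0.041). Neither passed adjustment over all genes in edgeR (adjusted p = 0.999 for both), and no histone gene did in DESeq2 or limma. Of the 35, 11 were higher and 24 lower, with a median of −0.08 against −0.003 for all genes. Leaving out any 1 of 5 LNCaP libraries (all but mimic replicate 3) ended the call of H2BC11, and without mimic replicate 3 the call of H4C11 ended.

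In 22Rv1 cells none of the 23 genes tested in edgeR met the rule or had an unadjusted p under 0.05, where 1.48% of all 16898 genes met it. DESeq2 named 1 of 23 genes, H3C6, where 2.06% of all genes met the rule. The limma fit on log2(TPM + 1) named 2 of 36, H1-4 and H2AC8, where 3.33% of all genes did. The values were noisy: the biological coefficient of variation over all genes was 0.343 in the 22Rv1 fit and 0.0964 in the LNCaP fit. Of the 23 genes 17 were higher and 6 lower with the mimic, with a median log2 fold change of 0.44 (all genes, −0.01). This median fell to 0.19 without both replicate 3 libraries (17 higher and 8 lower of 25 tested) and to 0.11 with 10 counts required in every library.

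The summed level of the 66 genes in LNCaP cells was 932, 975 and 1058 CPM with NC-mimic and 883, 919 and 1026 CPM with mimic, which overlap (log2 ratio −0.07, exact two-sided permutation p = 0.5). In 22Rv1 cells it was 88.8, 87.4 and 105 CPM with NC-mimic and 114, 91.5 and 138 CPM with mimic, which overlap as well (log2 ratio 0.28, exact permutation p = 0.2). The highest of these, mimic replicate 3, was the library lowest in S phase genes, and mimic replicate 1 was the highest of 22Rv1 cells in RN7SK (30.3 CPM, against 3.69 to 8.92 CPM in the other 22Rv1 libraries) and in RN7SL1 (416 CPM). By CPM the library numbered 3 had the highest histone sum in each group of both lines, and it was also the lowest of its group in S phase genes. By summed TPM, replicate 1 was instead the highest of the 22Rv1 mimic libraries. The part of these library differences in the sums was not tested.

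The difference of the mimic effect between the lines was tested as an interaction. Among 37 genes tested, 5 met the rule, all with a higher mimic effect in 22Rv1 than in LNCaP cells, where 3.26% of all 18720 genes met it, and no histone gene passed adjustment in edgeR, DESeq2 or limma. H3C6, an H3 gene, was at 24.5, 29.4 and 27.6 CPM with NC-mimic and 21.7, 23.9 and 27.3 CPM with mimic in LNCaP cells, and at 3.14, 2.52 and 2.69 against 3.71, 3.79 and 9.26 CPM in 22Rv1 cells. Its difference was 1.16 ± 0.43 on the log2 scale (unadjusted p = 0.019, adjusted p = 1.0), and it met the rule in every leave-one-out fit of the interaction. Without 22Rv1 mimic replicate 3, the highest of its mimic libraries, the difference was 0.58, and limma did not call it (0.90 on log2(TPM + 1), unadjusted p = 0.14). H3C6 overlaps other annotated genes on its own strand in the reference, so reads of these genes may be counted with it. The same holds for H2AC6, the next gene that met the rule. H2AC6 was at 5.65, 7.17 and 8.97 CPM with NC-mimic and 7.91, 10.1 and 12.96 CPM with mimic in 22Rv1 cells, where the groups overlap, and differed by 0.58 ± 0.26 (unadjusted p = 0.046). This call was lost with limma and on leaving out any 1 library other than LNCaP NC-mimic replicate 1, 22Rv1 NC-mimic replicate 3 or 22Rv1 mimic replicate 1.

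The other 3 genes rested on few counts in 22Rv1 cells. H2BC8 had 5, 9 and 2 counts with NC-mimic and 7, 13 and 24 with mimic there (difference 1.49 ± 0.59, unadjusted p = 0.027). H2BC11 had 11, 1 and 4 against 7, 8 and 24 counts (1.93 ± 0.82, unadjusted p = 0.037). H2BC17 had 1, 0 and 0 against 16, 1 and 0 counts (4.33 ± 1.81, unadjusted p = 0.034), so that its difference rested on mimic replicate 1, and without that library it was 0.97 (unadjusted p = 0.61). Without both replicate 3 libraries of 22Rv1 cells H2BC8 and H2BC11 no longer met the rule (unadjusted p = 0.21 and 0.16). H2AC19, H3C14 and H3C15 met it instead. In that fit 6 of 38 genes met the rule, 5 with a higher and 1 with a lower mimic effect in 22Rv1 cells, where 6.2% of all genes met it. Blocking on replicate number brought the count of genes that met the rule to 8, where 4.55% of all genes met it in that fit, and H3C14 and H3C15, which have identical values, count as 2 of the 8.

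**Figure D5:**
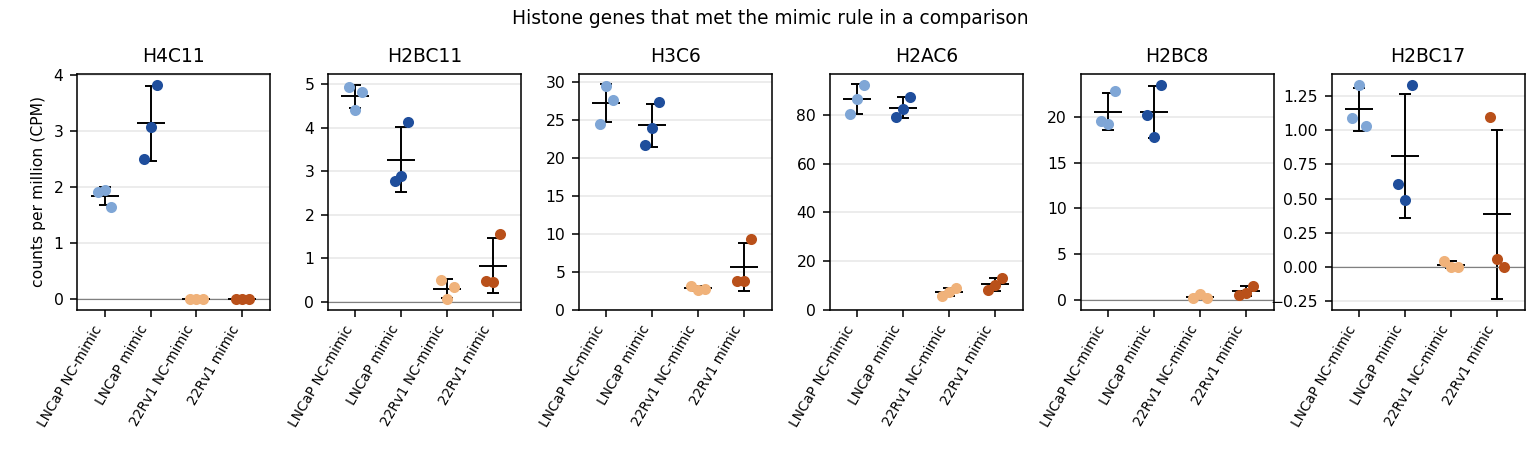
CPM of the 6 genes that met the rule in LNCaP cells or in the interaction, with points for libraries and bars for the mean ± SD of each group (n = 3). In LNCaP cells H4C11 was higher and H2BC11 lower with the mimic without overlap, and the 22Rv1 libraries of each gene lie below the LNCaP libraries except for H2BC17 in mimic replicate 1.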

How the data were processed

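RNA-seq of 12 libraries (3 per group) was used. According to the study's methods and processing notes, the authors aligned reads to hg38 with STAR 2.7.1a and estimated gene expression with RSEM 1.3.0, and the authors deposited expected counts and TPM per gene; their DEGs came from DESeq2 1.34.0 in R 4.1.1. The annotation release, strand setting, read length and poly(A) selection are not given in the sources used here. The deposited TPM table of all libraries equalled the per-library TPM values (largest difference 0).

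Genes were chosen by symbol; the members, the related gene lists (written from general knowledge) and the tests were chosen with earlier results of these data known. Expected counts were rounded and tested with edgeR 4.0.16 (R 4.3.3; TMM, filterByExpr, quasi-likelihood F-test); adjusted p-values are Benjamini-Hochberg over all genes tested, and ± after a log2 fold change is its standard error. CPM used one TMM scaling over all 12 libraries; ± after TPM is the SD. Sums were compared by exact two-sided permutation (smallest p 0.1 for 3 against 3). Total expected counts ran from 12161091 to 22179601 per library; a gene without counts was given a floor of 3 counts over its group, which covers counting error only. Alternatives were DESeq2 1.42.0, limma 3.58.1 on log2(TPM + 1) or log2(TPM + 0.5), other scalings and filters, leave-one-out fits and a replicate block; merged copies and mimic libraries between lines were added after seeing the data. Fits were tested on simulated data.

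Named genes were the 12 with the highest mean TPM, those meeting the rule with the mimic or in the interaction, up to 6 in each direction with the largest difference between lines, and the highest of each type. Deviations of same-numbered NC-mimic and mimic libraries correlated over genes at r = 0.166, 0.144 and 0.324 in 22Rv1 cells (LNCaP 0.0122, 0.00292 and 0.164). In 22Rv1 cells NC-mimic 1 with mimic 2 (0.160) and NC-mimic 2 with mimic 1 (0.105) were similar. Number 3 with 1 or 2 ran from −0.240 to −0.181. The numbers were taken to pair in 22Rv1 cells from the values alone, which set number 3 apart but did not tell 1 and 2 apart. Gene structures came from GENCODE v44 on hg38, joined by symbol (66 of 66; 64 with the same gene ID, H2AC18 and H2AC19 being the exceptions), and promoters from RefSeq. Of the 66 genes 19 overlap another annotated gene on the same strand and 16 on the opposite strand, and pairs with identical coding sequence (H2AC18 and H2AC19, H3C14 and H3C15, H4C11 and H4C12, H4C14 and H4C15) are uncertain singly; H3C14 and H3C15 had identical values.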

Additional observations from a re-analysis of the deposited data

Results flagged for a closer look

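The summed TPM of the 17 H2B genes moved in opposite directions with the mimic in the lines, without overlap in either. In LNCaP cells it was 873, 875 and 844 with NC-mimic and 784, 807 and 818 with mimic, and in 22Rv1 cells it was 71.5, 63.8 and 75.7 with NC-mimic and 86.1, 80.8 and 88.9 with mimic (exact permutation p = 0.1 in each line, the smallest possible). The log2 ratio was higher by 0.38 in 22Rv1 than in LNCaP cells; the difference of the sums was not tested. By summed CPM the groups overlapped in each line, at 360 to 381 against 328 to 378 in LNCaP and 29.1 to 35.0 against 29.5 to 51.0 in 22Rv1 cells. The sum of the 13 H3 genes was higher with the mimic in 22Rv1 cells without overlap in either unit. It was 19.2 to 21.9 against 22.7 to 46.8 TPM and 9.63 to 11.8 against 12.1 to 21.8 CPM (exact permutation p = 0.1 each). In LNCaP cells the H3 sums overlapped in both units (exact permutation p = 0.3 each). The H1, H2A and H4 sums overlapped between NC-mimic and mimic libraries in both lines and both units (exact permutation p = 0.3 to 0.8). The flagged sums are thus those that separated among all types, lines and units, each only at the smallest possible p.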

How the results depend on the processing

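The count of histone genes that differed between the lines (32) was 26 to 34 under every alternative except 1. The requirement of 10 counts in every library left 15 genes to test and called 15. Among all genes 10226 of 17497 differed in the reported fit and 7869 of 13663 with 10 counts. The share of all genes was smallest without the low-count filter (10923 of 30208) and largest without 22Rv1 NC-mimic replicate 3 (12117 of 18304). Without LNCaP NC-mimic replicate 3 there were 2 higher histone genes, and in the mimic libraries none was higher. The lower summed level in 22Rv1 cells ranged from −3.49 to −3.34 on the log2 scale under other scalings, units and left-out libraries (replicate block −3.40; exact sign-flip p = 0.25, the smallest possible) and was −3.04 in the mimic libraries. For the mimic in LNCaP cells, 2 genes met the rule in the reported fit, 1 with DESeq2, 0 in the fit of all 12 libraries, 3 with the replicate block and 1 to 4 when 1 library was left out. The shares of all genes in these fits were 2.22%, 1.52%, 0.897%, 3.13% and 1.72% to 6.05%, in the same order. In 22Rv1 cells, where none did, DESeq2 gave 1, limma 2 with either pseudocount, the shared fit of all 12 libraries 9 of 37 tested (6.58% of all genes met the rule there), the replicate block 0 and leaving out 1 library 0 to 1. The shares of all genes were 2.06% with DESeq2, 3.33% and 3.34% with limma, 2.49% with the block and 1.03% to 2.16% with 1 library left out. For the difference between lines, where 5 did, 9 met the rule without the low-count filter, 2 with 10 counts in every library, 9 with DESeq2, 2 with limma at either pseudocount, 8 with the replicate block (4.55% of all genes) and 1 to 9 with 1 library left out. The other shares of all genes were 3.17% without the filter, 2.56% with 10 counts and 3.95% with DESeq2. They were 3.96% and 4.09% with limma and 2.09% to 5.38% with 1 library left out. The causes were not tested beyond the alternatives' own construction. Summed levels with the mimic kept their sign: with the block they were −0.07 in LNCaP and 0.27 in 22Rv1 cells (exact sign-flip p = 0.25 each). The replicate block changed no other call. Of 292 values of named genes between lines under alternatives, 291 stayed on their side of the threshold; H2AC20 in the mimic libraries did not. Of those with the mimic, 18 of 29 in LNCaP cells and 63 of 102 for the difference stayed past the rule, and none changed sign. Detection held 55 genes at 0.1 TPM and 38 at 10 counts. Few counts limit the 22Rv1 values, where the 66 genes together had 1289 to 2127 counts per library.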
